A study of Oryza sativa with 4 samples.

Results

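OsbZIP42 (labelled HBF1) and OsbZIP69 (labelled FD4) are rice bZIP transcription factors, and their genomic binding sites were compared pair by pair. Each OsbZIP69 peak was paired with the nearest OsbZIP42 peak whose centre lay within 100 bp, and each OsbZIP42 peak was used once. This gave 1076 pairs from 1107 OsbZIP69 peaks and 28323 OsbZIP42 peaks, out of 31683 peaks in the whole series. The assay was DAP-seq, in which purified, naked genomic DNA is captured on a tagged transcription factor and the retained fragments are sequenced. The DNA came from leaves of the cultivar Nipponbare, and each protein was fused to a HALO tag and made in rabbit reticulocyte lysate, so the peaks describe binding outside the cell, without chromatin or plant cofactors. The other 2 libraries were OsbZIP77 (labelled FD1) and a HALO-GST negative control, and there was 1 library per protein without replicates.

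bZIP factors pair up through a leucine zipper and grip DNA with the adjoining basic region, and plant members commonly recognise sequences with an ACGT core. FD-type bZIPs bring florigen, the mobile flowering signal, to DNA in the shoot apical meristem, where the complex switches on genes of the inflorescence. Rice FD proteins do not all act alike: HBF1 is known as a florigen-binding repressor of flowering, whereas FD1 and FD4 are known as partners of florigen in activating complexes.

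Nearly the whole OsbZIP69 list was a small part of the OsbZIP42 list. Of the OsbZIP69 peaks, 97.2% had a pair (exact 95% interval 96.0 to 98.1), against 3.80% of the OsbZIP42 peaks (3.58 to 4.03). With lists of such unequal length and libraries of unknown depth, an OsbZIP42 peak without a pair is not shown to lack OsbZIP69 binding. Intervals on shares cover the counting of peaks only. All comparisons below are descriptions of single libraries. Signal is the authors' own value per peak, whose unit and scaling between libraries are not given in the sources used here. Values are therefore compared between proteins by rank, within a list or among the pairs.

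The paired OsbZIP42 peaks came mostly from the top of their list. The median OsbZIP42 signal was 91.1 at pairs, in a range from 9.9 to 736, and 23.3 at peaks without one. By rank, 50% of the pairs fell among the 1911 strongest OsbZIP42 peaks, the top 6.75% of the list, and 90% among the 9303 strongest. On the OsbZIP69 side the pairs covered nearly the whole list, with a median signal of 26 in a range from 9.2 to 263.

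The centres of most paired peaks lay next to each other, and none at the same base. In 866 of the 1076 pairs, or 80.5% (78.0 to 82.8), the centres were exactly 1 bp apart, with the OsbZIP42 centre after the OsbZIP69 centre in 433 pairs and before it in 433. A further 57 pairs were 2 bp apart, 3 pairs were 3 to 9 bp apart and 150 were more than 9 bp apart. Identical centres occurred in 0 of 1076 pairs, for which a limit of 3 counts sets a share of 0.279% and the exact 95% interval ends at 0.342%. The same pairing of OsbZIP69 with OsbZIP77 gave identical centres in 702 of 804 pairs, and that of OsbZIP77 with OsbZIP42 in 5 of 1980, with 1593 at 1 bp. The 1 bp step thus set both shorter lists apart from the OsbZIP42 list, and its origin was not tested.

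**Figure D1:**
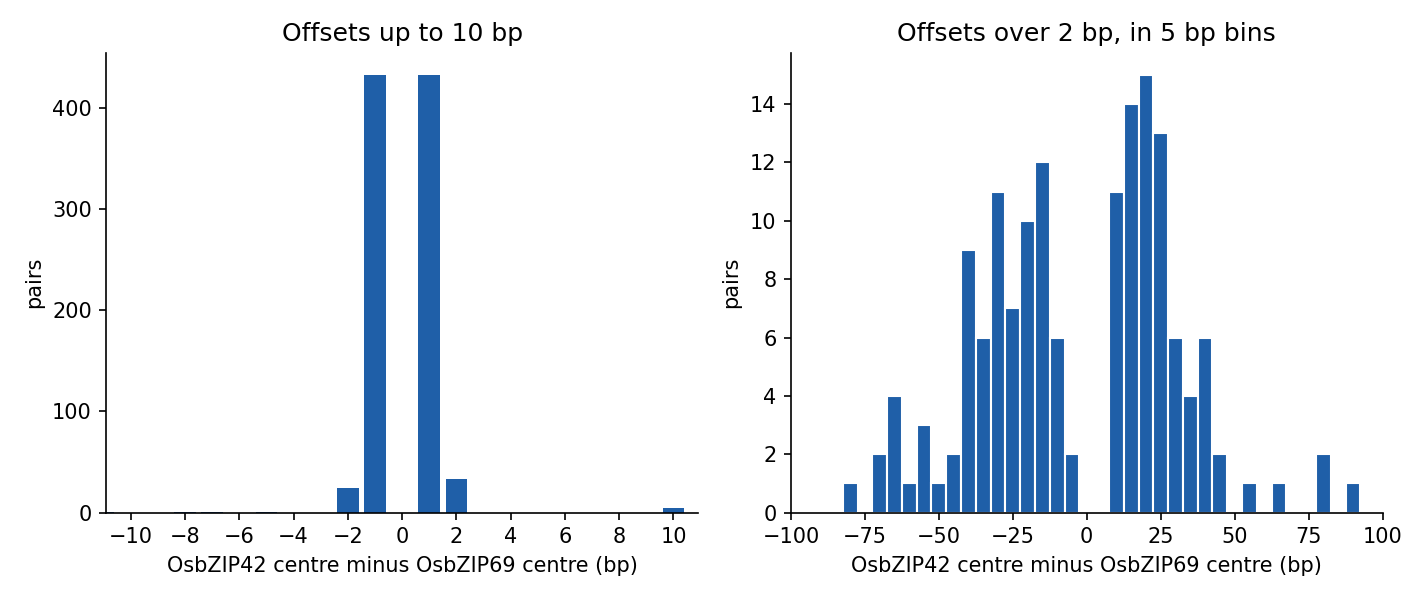
Number of pairs by the distance from the OsbZIP69 centre to the OsbZIP42 centre (bp), for offsets up to 10 bp (left) and for the 153 pairs over 2 bp apart in bins of 5 bp (right). The 433 pairs on each side at 1 bp dominate, and the bar at 0 is empty.

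In the 153 pairs with centres over 2 bp apart, the ranks leaned towards OsbZIP42. Their median OsbZIP42 signal was 134, against 88.7 in the 923 closer pairs, while their median OsbZIP69 signal was 23 against 26. OsbZIP77, whose list the pairing did not use, had a centre within 100 bp of the OsbZIP69 centre in 96 of the 153, or 62.7%. That share was lower than in the closer pairs, where it was 715 of 923, or 77.5%. In the 96, OsbZIP77 fell within 2 bp of the OsbZIP69 centre alone in 67, of the OsbZIP42 centre alone in 21, of both in 1 and of neither in 7. Where the centres of OsbZIP42 and OsbZIP69 parted, OsbZIP77 was thus found at the OsbZIP69 position more often.

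The share of OsbZIP42 peaks with a pair was higher at each doubling of OsbZIP42 signal. Below a signal of 16, 15 of 5595 OsbZIP42 peaks were paired, or 0.268% (0.150 to 0.442). The share was 0.633% (0.503 to 0.787) from 16 to 32 and 3.52% (3.08 to 4.001) from 32 to 64. It was 15.98% (14.6 to 17.4) from 64 to 128, 31.7% (28.4 to 35.02) from 128 to 256 and 56.0% (47.4 to 64.4) at 256 and above, where 79 of 141 peaks were paired. No 2 neighbouring intervals among these 6 overlapped.

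OsbZIP69 signal at the pairs differed far less between these classes than the share did. The median OsbZIP69 signal was 16 for OsbZIP42 signals below 16, 22 from 32 to 64, 31 from 128 to 256 and 39 at 256 and above. Spread within a class was wide at the top: pairs with an OsbZIP42 signal of 256 or more had OsbZIP69 signals from 13 to 263. Weak OsbZIP69 peaks thus occurred at OsbZIP42 sites of every strength. Below an OsbZIP42 signal of 16 the highest OsbZIP69 signal was 23, but that class held only 15 pairs. From 16 to 32 the highest was 50, over 81 pairs. Pairs hold only called OsbZIP69 peaks, none below a signal of 9.2, so these medians leave out weaker OsbZIP69 signal.

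**Figure D2:**
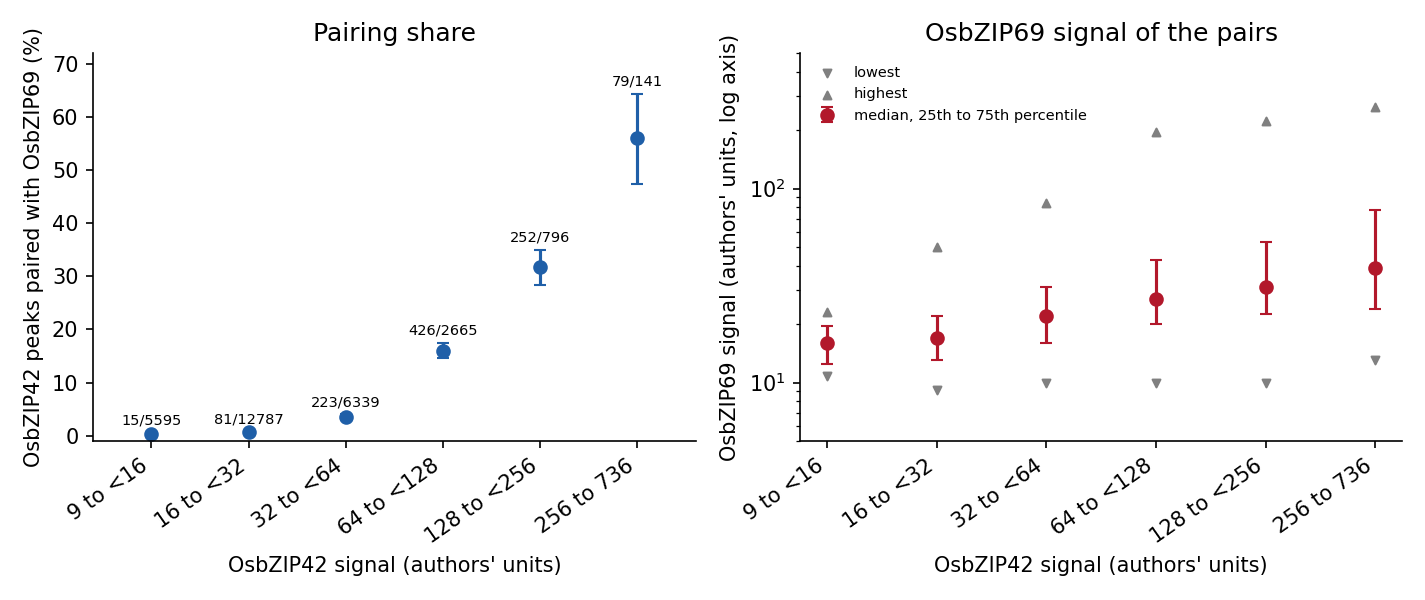
Left, the percent of OsbZIP42 peaks paired with OsbZIP69 in 6 classes of OsbZIP42 signal (authors' units), with exact 95% intervals and the counts behind each point. Right, the OsbZIP69 signal of the pairs in the same classes (log axis; median with 25th to 75th percentiles, lowest and highest), which moves from a median of 16 to one of 39 while the share goes from 0.268% to 56.0%.

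Even among the strongest OsbZIP42 peaks pairing was incomplete. Of the 10 strongest, 9 were paired, of the 100 strongest 67, of the next 100 44, and of ranks 201 to 500 106 of 300. Of the 33 unpaired peaks among the 100 strongest, 6 had an OsbZIP69 centre within 500 bp and 27 had none, and OsbZIP77 had a centre within 100 bp of 22. For comparison, OsbZIP77 was that close to 89.9% of the paired OsbZIP42 peaks with a signal of 256 or more. It was that close to 47.2% of those with no OsbZIP69 centre within 100 bp, and to 7.80% of all OsbZIP42 peaks. The strongest unpaired OsbZIP42 peak, of rank 7 on chromosome 11, lay 34154 bp from the nearest OsbZIP69 centre and 13 bp from an OsbZIP77 centre. Rank 25 had a signal of 381 on chromosome 2 from 18092541 to 18092741 and was 130764 bp from OsbZIP69 and 1 bp from OsbZIP77. Rank 27 had a signal of 377 on chromosome 9 from 1337325 to 1337525, and the OsbZIP69 centre 55 bp away was taken by a closer OsbZIP42 peak. Rank 28 had a signal of 376 on chromosome 3 from 11700657 to 11700857 and was 113632 bp from OsbZIP69 and 28 bp from OsbZIP77. Rank 31, on chromosome 4, was the only one of these 5 far from both, at 81347 bp from OsbZIP69 and 454026 bp from OsbZIP77.

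At the other end, 40 pairs used an OsbZIP42 peak from the lower 50% of its list. Their OsbZIP69 signals ran from 9.2 to 36 with a median of 17, and 37 of the 40 had centres within 2 bp. Chromosome 11 from 21603416 to 21603616 held the strongest of them in OsbZIP69, a site picked with its values in view. Its OsbZIP69 signal was 36, at 29.4% of that list, and its OsbZIP42 signal was 22, at 54.9%. OsbZIP77 had a signal of 19 there with its centre on the same base as OsbZIP69.

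The ranks of the paired peaks agreed only loosely. Over the 1076 pairs Spearman's rank correlation of signal was 0.39 and Pearson's r of log2 signal was 0.41. These are descriptions across sites that share a library on each side. In the 538 pairs with the stronger OsbZIP42 signal the rank correlation was 0.12, and in the 538 weaker ones 0.35. This split narrows the range of OsbZIP42 signal, which by itself can lower a correlation, and its part in these values was not tested.

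Rank shifts were measured in points. Pairs were placed by signal from 0 (strongest) to 100 (weakest) among the 1076 in each list, and the OsbZIP69 place was subtracted from the OsbZIP42 place, so that a positive shift means a higher place by OsbZIP69. The median absolute shift was 20.6 points, with 25% of pairs below 9.10 and 25% above 38.3. Shifts over 50 points were found in 57 pairs towards OsbZIP69, or 5.30% of pairs, and in 80 towards OsbZIP42, or 7.43%. Over 75 points, the counts were 2 and 17. The extremes were a shift of 78.9 towards OsbZIP69 and of -91.4 towards OsbZIP42.

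Pairs with separated centres were found mainly on one side of this distribution. The median shift was -15.0 points in the 153 pairs over 2 bp apart and 2.51 in the 923 closer ones. Of those 153, 23 shifted by over 50 points towards OsbZIP42 and 3 towards OsbZIP69. In the closer pairs the 2 directions were nearly even, at 57 and 54.

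Sites ranked high by one protein and low by the other were taken as those in the upper 25% of pairs by one signal and the lower 25% by the other. The upper 25% began at a signal of 149 for OsbZIP42 and 41 for OsbZIP69, and the lower 25% ended at 57.2 and 18. High by OsbZIP69 and low by OsbZIP42 were 20 pairs, or 1.86% of all pairs. High by OsbZIP42 and low by OsbZIP69 were 38 pairs, or 3.53%. For comparison, 106 pairs, or 9.85%, were high by both and 128, or 11.9%, were low by both.

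**Figure D3:**
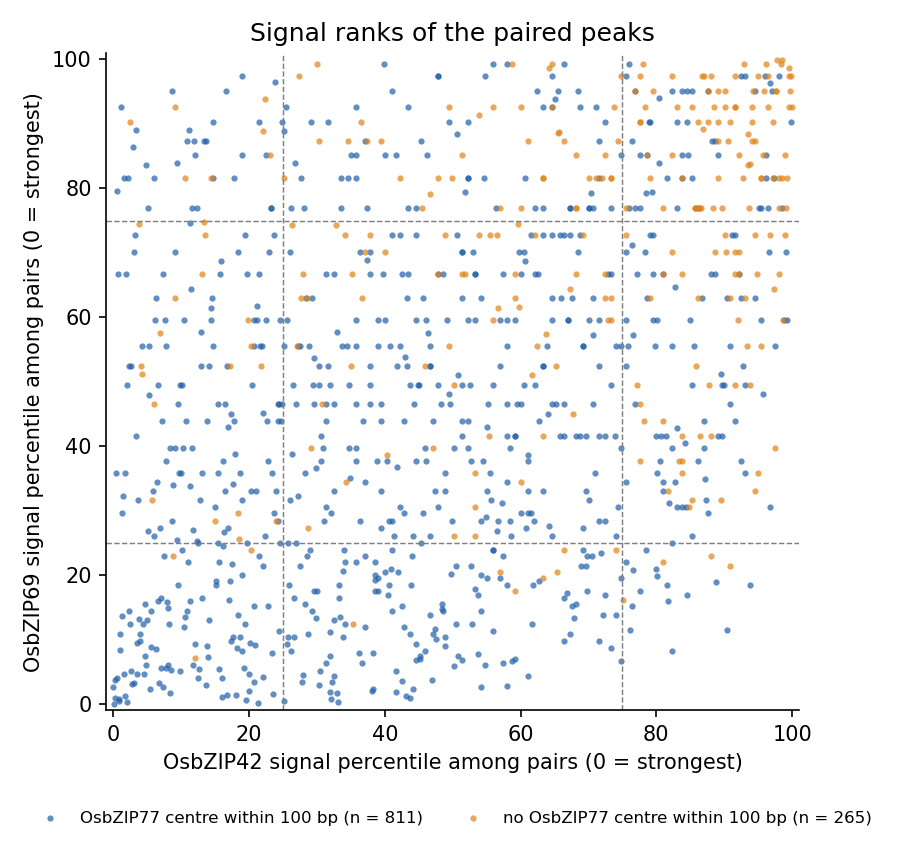
Each point is 1 of the 1076 pairs, placed by its OsbZIP42 signal (x axis) and its OsbZIP69 signal (y axis) as a percentile among pairs, where 0 is strongest; dashed lines mark 25 and 75, and colour marks the 811 pairs with an OsbZIP77 centre within 100 bp. The lower right corner (high by OsbZIP69, low by OsbZIP42) holds 20 pairs and the upper left corner 38, and pairs without OsbZIP77 gather at the upper right.

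The 20 sites favoured by OsbZIP69 were spread over 10 chromosomes, with at most 5 on any 1, chromosome 12. Their median OsbZIP69 signal was 49.8 and their median OsbZIP42 signal 47.8, and 19 of the 20 had centres within 2 bp. None of the 20 was weak in the OsbZIP42 list as a whole: their lowest OsbZIP42 signal was 27.1, above the median of 24 in the whole OsbZIP42 list. Favoured thus refers only to the place among the pairs. By whole lists some of the 20 stood higher in OsbZIP42. On chromosome 10 from 10250027 to 10250227, a site picked with its values in view, the places were 21.4% for OsbZIP69 and 15.1% for OsbZIP42. Others stood higher in OsbZIP69 by whole lists too, as at the largest shift, with 11.3% and 34.0%. The largest shift, 78.9 points, was on chromosome 6 from 5220032 to 5220232, where OsbZIP69 had a signal of 64 (rank 125) and OsbZIP42 one of 32.4 (rank 9632). OsbZIP77 had a signal of 16.6 there, at 77.9% of its list. On chromosome 3 from 14781872 to 14782072 the shift was 75.4 points, and OsbZIP69 had a signal of 50, OsbZIP42 of 27.1 and OsbZIP77 of 21.

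The strongest OsbZIP69 peak among these 20 lay on chromosome 10 from 14874452 to 14874652. It had a signal of 77 for OsbZIP69 (rank 88) against 46 for OsbZIP42 (rank 5865), and a signal of 39.1 for OsbZIP77, in the top 7.33% of that list. This site stood alone, with the next OsbZIP42 centre 15891 bp away. OsbZIP69 signals of 64, 57 and 55 were found on chromosome 1 from 19826846 to 19827046, chromosome 7 from 10927269 to 10927469 and chromosome 11 from 24228273 to 24228473. OsbZIP42 signals at these 3 sites were 56.4, 56 and 47 and OsbZIP77 signals 23, 36 and 27, in the same order. A second site of this kind lay 3560 bp from the last, on chromosome 11 from 24224713 to 24224913, where OsbZIP69 had a signal of 51, OsbZIP42 of 54 and OsbZIP77 of 36; it was picked with its values in view. On chromosome 12 from 19121135 to 19121335 the shift was 69.9 points, with signals of 49.5 for OsbZIP69 and 35.8 for OsbZIP42. A second OsbZIP69 centre and a second OsbZIP42 centre both lay 86 bp from it, and the part of these neighbours in its rank was not tested. On chromosome 6 from 4312870 to 4313070 the shift was 69.5 points, with signals of 45 and 32 and the nearest OsbZIP77 centre 18965 bp away.

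The 38 sites favoured by OsbZIP42 were spread over 11 chromosomes and had a median OsbZIP42 signal of 209.5 and a median OsbZIP69 signal of 15.7. In this group 28 of the 38 had centres within 2 bp. The largest shift, -91.4 points, was on chromosome 5 from 4281261 to 4281461, where OsbZIP42 had a signal of 427 (rank 14) and OsbZIP69 one of 13 (rank 999). OsbZIP77 was also weak there, with a signal of 15 at 81.2% of its list, and the next OsbZIP42 centre lay 8143 bp away. The shift was -87.8 points on chromosome 7 from 5951191 to 5951391, with an OsbZIP42 signal of 360 and an OsbZIP69 signal of 14. The centres there were 43 bp apart, and the nearest OsbZIP77 centre was at 7370 bp.

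OsbZIP77 did not always side with OsbZIP69 at these sites. The strongest of the 38 in OsbZIP42, on chromosome 6 from 1468872 to 1469072, had signals of 476 for OsbZIP42 (rank 6) and 17.1 for OsbZIP69 (rank 867). OsbZIP77 had a signal of 49 there, in the top 2.91% of its list. A second OsbZIP69 centre lay 81 bp away and a second OsbZIP42 centre 146 bp away. These neighbours, with signals of 16.9 and 303, form another of the 38 pairs and lie by the same OsbZIP77 peak, so 1 locus counts 2 times here. On chromosome 3 from 14744069 to 14744269, OsbZIP42 had a signal of 379, OsbZIP69 of 17 and OsbZIP77 of 37, and the centres of the first 2 lay 22 bp apart. That site lies 37803 bp from the OsbZIP69-favoured site on the same chromosome, and the 2 are neighbours in the OsbZIP69 list. On chromosome 2 from 3637537 to 3637737, OsbZIP42 had a signal of 416, OsbZIP69 of 17 and OsbZIP77 of 27, and a second OsbZIP42 centre lay 50 bp away. The remaining 3 of the 5 largest shifts were on chromosome 5 from 16152204 to 16152404 and from 23735056 to 23735256 and on chromosome 6 from 13886320 to 13886520. OsbZIP42 signals there were 244, 334 and 237, and OsbZIP69 signals 12, 14.2 and 13.

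Sites at the top of both lists form the third group. The 5 with the best worst place include a peak on chromosome 5 from 22677857 to 22678057, of rank 10 in OsbZIP42 (signal 445) and rank 8 in OsbZIP69 (signal 149). OsbZIP77 had a signal of 49 on the same centre as OsbZIP69. On chromosome 7 from 1311162 to 1311362 the ranks were 20 (signal 404) and 14 (signal 131), with a signal of 38.6 for OsbZIP77. The other 3, on chromosomes 9, 10 and 12, ranked between 2 and 11 in OsbZIP42 and between 1 and 10 in OsbZIP69.

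The OsbZIP77 list gave a reading of these groups that the pairing did not use. An OsbZIP77 centre lay within 100 bp of the OsbZIP69 centre in 811 of the 1076 pairs, or 75.4% (72.7 to 77.9). Of all OsbZIP69 peaks 815 of 1107 had one, or 73.6% (70.9 to 76.2). The share at pairs was thus close to that of the whole OsbZIP69 list. Measured from the OsbZIP42 centre, 7.80% of all OsbZIP42 peaks had one, but their median OsbZIP42 signal was 24, against 91.1 at pairs. OsbZIP77 was found at 103 of the 106 pairs high by both, or 97.2% (92.0 to 99.4). Among pairs low by both it was found at 47 of 128, or 36.7% (28.4 to 45.7). Of the 20 pairs high by OsbZIP69 alone, 16 had it, or 80.0% (56.3 to 94.3), and of the 38 high by OsbZIP42 alone 31, or 81.6% (65.7 to 92.3). The 31 lay by 30 different OsbZIP77 peaks, and the 811 by 804. The discordant groups thus lay between the extremes, and their intervals overlapped widely.

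Within each 25% of the pairs by OsbZIP42 signal, the OsbZIP77 share was higher at strong than at weak OsbZIP69 peaks. In the weakest 25% by OsbZIP42 it was 80.0% in the strongest 25% by OsbZIP69, then 63.2%, 59.4% and 36.7%. In the strongest 25% by OsbZIP42 it was 97.2%, 91.7%, 77.4% and 81.6% in the same order. Within each 25% by OsbZIP69 signal, the share was likewise higher at the strongest than at the weakest 25% by OsbZIP42. In the weakest 25% by OsbZIP69 it was 36.7%, 54.8%, 67.4% and 81.6%, from the weakest to the strongest 25% by OsbZIP42. In the strongest 25% by OsbZIP69 it was 80.0%, 89.3%, 98.9% and 97.2%. OsbZIP42 peaks with no OsbZIP69 centre within 100 bp gave lower shares over the same ranges of OsbZIP42 signal. Only the ends of each range were matched, not the signals within it. These shares were measured from the OsbZIP42 centre, and those of pairs from the OsbZIP69 centre. From 27.1 to 57.2, the OsbZIP42 range of the OsbZIP69-favoured sites, 417 of 7581 such peaks had OsbZIP77, or 5.50% (4.998 to 6.04). From 149 to 476, the range of the OsbZIP42-favoured sites, 126 of 369 did, or 34.1% (29.3 to 39.2). These shares depend on the depth of the OsbZIP77 library, which is unknown.

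**Figure D4:**
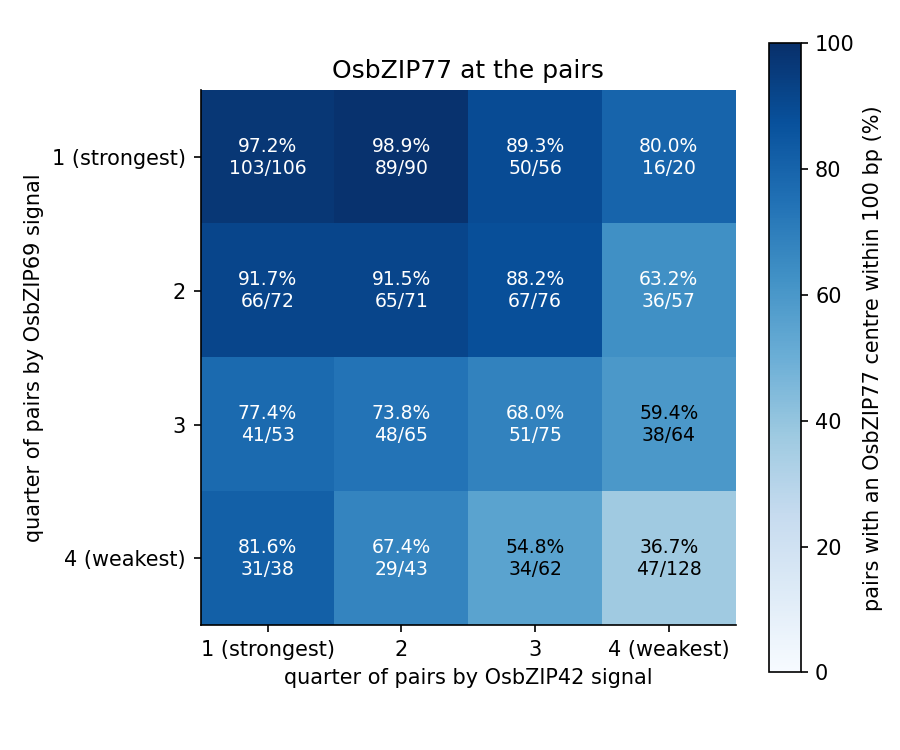
Percent of pairs with an OsbZIP77 centre within 100 bp, with the counts, in 16 groups set by the 25% of pairs by OsbZIP42 signal (columns) and by OsbZIP69 signal (rows), strongest first. The share runs from 36.7% where both are weakest to 98.9% (89 of 90 pairs).

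Of the 31 OsbZIP69 peaks without a pair, 27 had no OsbZIP42 centre within 100 bp and 4 lost it to a closer OsbZIP69 peak. The 27 were mostly weak, with a median signal of 12 and a highest of 36, at 29.4% of the OsbZIP69 list. The 4 were, in part, near copies of a paired peak. On chromosome 9 from 12781232 to 12781432 a signal of 47.8 lay 1 bp from a paired OsbZIP69 centre with a signal of 48.2, and on chromosome 10 from 10233006 to 10233206 a signal of 28.4 lay 1 bp from one with 28.6. The strongest had a signal of 92.8 on chromosome 5 from 27707099 to 27707299 and lay 30 bp from an OsbZIP42 centre whose signal of 323 was paired with an OsbZIP69 peak of 60.2 at 1 bp. The other 2 of the 5 strongest unpaired peaks had no OsbZIP42 centre nearby. They lay on chromosome 12 from 13388529 to 13388729, at 14249 bp, and, with a signal of 27, on chromosome 1 from 37300972 to 37301172, at 1608 bp. Around the limit of the pairing distance, the widest pair was 89 bp apart, with an OsbZIP69 signal of 11, and the nearest centres outside it were 115, 118 and 120 bp away, with signals of 12, 15 and 17. HALO-GST had a peak within 1000 bp of 1 of the 1076 pairs. This count cannot decide how specific the pairs are, as the HALO-GST list held only 194 peaks. A control had also already entered the GEM calls behind both lists of the pairing.

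Pairs were found along all 12 chromosomes, from 51 on chromosome 9 to 131 on chromosome 1. The share of OsbZIP42 peaks with a pair was 2.99% on chromosome 9 (2.23 to 3.91) and 3.11% on chromosome 3 (2.53 to 3.78). It was highest on chromosome 12, at 4.80% (3.83 to 5.93), and chromosome 11, at 5.14% (4.18 to 6.25). Each chromosome was also given the number of pairs that its mix of OsbZIP42 signals would yield at the genome-wide share in 20 strata of signal. Chromosome 11 had 95 pairs against 70.7 and chromosome 12 had 81 against 68.4. Chromosome 3 had 98 against 119 and chromosome 9 had 51 against 62.0. Of these 4, only chromosome 11 had an interval that left out the value from signal strata. The match was approximate, as pairing still varied within the strongest stratum. It was 67.0% at OsbZIP42 ranks 1 to 100 and 26.0% at ranks 501 to 1000.

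**Figure D5:**
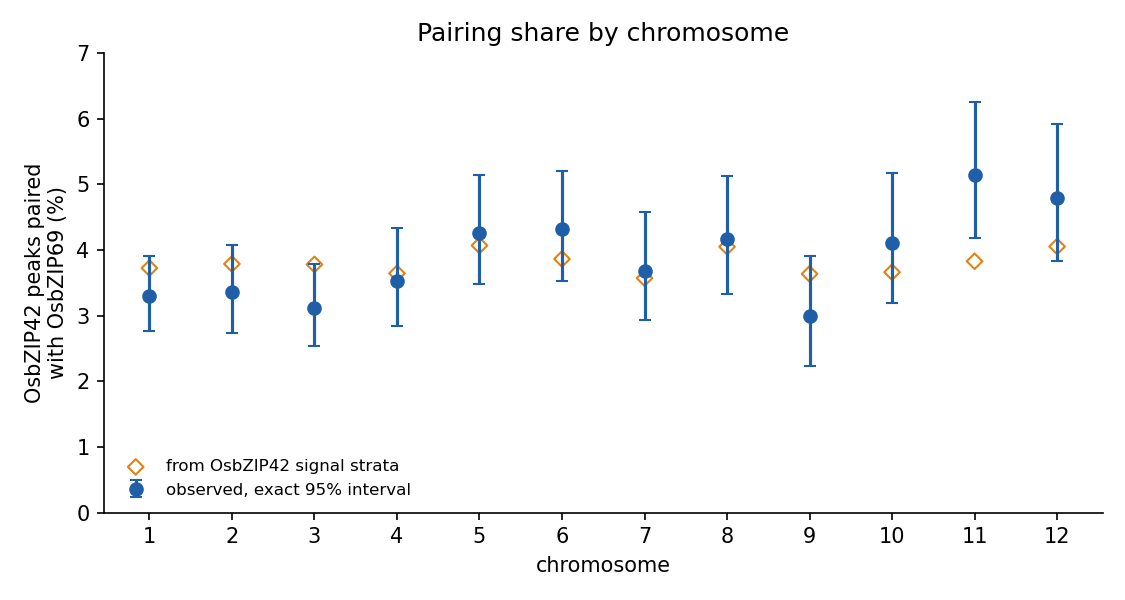
Percent of OsbZIP42 peaks paired with OsbZIP69 on each of the 12 chromosomes (circles, exact 95% intervals) beside the percent that the chromosome's OsbZIP42 signals would yield at genome-wide shares in 20 strata (diamonds). Chromosome 11 lies above its diamond by most, at 5.14%, and the interval does not reach it.

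Pairs were somewhat more frequent within 5 Mb of chromosome ends, but not at matched OsbZIP42 signal. Within 5 Mb of either end of the span of peaks, 443 of 10216 OsbZIP42 peaks were paired, or 4.34% (3.95 to 4.75), against 633 of 18107 elsewhere, or 3.50% (3.23 to 3.77). The distal share was higher on 10 of 12 chromosomes, by most on chromosome 12, at 6.28% against 3.42%, and lower on chromosomes 2 and 9. With the ends drawn at 2 Mb the shares were 3.89% and 3.78%. Against the pairs yielded by OsbZIP42 signal strata, the counts were 443 to 442 within 5 Mb and 633 to 634 beyond, a difference of about 1 pair on each side. Separate bands of distance varied more. The ratio of observed pairs to those from signal strata ran from 0.813 at 16 to 25 Mb to 1.15 at 4 to 5 Mb. In the first 3 Mb of chromosomes 11 and 12, whose ends are known to share a duplication, 11 of 160 and 5 of 159 OsbZIP42 peaks were paired, with intervals of 3.48 to 11.97% and 1.03 to 7.19%.

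At finer scale the pairs were scattered. The median gap between neighbouring pairs was 214736 bp, and 40 of 378 intervals of 1 Mb held none. The fullest interval, on chromosome 12 from 3 to 4 Mb, held 10 pairs among 98 OsbZIP42 peaks, against 5.18 from signal strata. Chromosome 1 from 29 to 30 Mb held 9 among 109, against 4.38 from signal strata. On chromosome 11, the intervals from 24 to 25 Mb and from 27 to 28 Mb each held 7 pairs, against 2.51 and 2.41 from signal strata. Their median shifts were opposite, at 46.4 and -22.8 points, over 7 pairs each. These intervals were picked from the 378 with their values in view. Other full intervals were near the strata value, as on chromosome 10 from 22 to 23 Mb, with 7 pairs against 6.76.

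Rank shifts had no strong tie to chromosome. The median shift ran from -4.88 points on chromosome 10 to 10.7 on chromosome 2, while on every chromosome the middle 50% of pairs spanned more than 25 points and crossed 0. Of the 20 OsbZIP69-favoured sites 8 lay within 5 Mb of an end, and of the 38 OsbZIP42-favoured sites 15 did, or 40.0% and 39.5%, beside 41.2% of all pairs. Of the 106 pairs high by both, 54 did, or 50.9%, and of the 128 low by both 42, or 32.8%.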

How the data were processed

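Peak lists of 4 DAP-seq libraries were analysed, 1 per protein, grouped by sample title. Alignment used Bowtie2 2.2.8, as the submitters' processing notes state. Per the deposited file names, peaks were called with GEM, against a negative control for the 3 bZIP libraries. No build is named in the sources used here. Every deposited peak is 201 bp wide. The authors' signal value per peak has no stated unit, and depth is unknown. The lowest of the authors' −log10 q-values was 2 in each list. The deposited −log10 p-values and the authors' peak score were not used for results.

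Centres are 1-based. Closest centres within 100 bp were paired first, each peak once; 1 pair used a second-nearest centre. Tied signals shared a rank. Intervals are exact (Clopper-Pearson, 95%). No test was made between proteins. The pairing was run on simulated data in which no OsbZIP69 peak had more than 1 OsbZIP42 centre within 100 bp. Contests between peaks for a centre did not arise there and were not tested. Named sites were the 5 largest rank shifts each way, the 5 strongest of each protein among pairs in the other's lower 25%, the 5 strongest unpaired peaks of each list and the 5 pairs with the best worst place. Members, lists and rules were chosen with earlier results of these data known; the signal strata, the pairing with the nearest centre or none, and the OsbZIP77 shares without pairs that had a second centre within 200 bp were chosen after seeing the data. Peaks were not assigned to genes and no sequence was read, as no genome of this build was used. Scripts ran in Python 3.11.15, with numpy 2.4.6, pandas 2.3.3 and scipy 1.17.1.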

Additional observations from a re-analysis of the deposited data

How the results depend on the processing

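Of 58 alternatives for 12 results, 45 left the value within its interval or within 1.5 times the count and 13 moved it. A change of sign was looked for only in the rank correlation and the distal excess, and was not found there. The paired share of OsbZIP69 peaks was 84.1% with a 10 bp limit, 95.7% with 50 bp and 98.4% when each list kept its upper 50% by q-value. Taking the nearest OsbZIP42 centre or none gave 1075 pairs. Shifts over 50 points made up 12.7% of pairs, 15.0% by q-value and 32.4% by whole-list ranks, which by construction favour the longer list. By whole-list ranks, 0 of these shifts were towards OsbZIP69 and 349 towards OsbZIP42, so the shifts towards OsbZIP69 hold only for places among the pairs. Sites favoured by OsbZIP69 numbered 61 with limits at 33.3% and 0 with limits at 10%, and sites favoured by OsbZIP42 75 and 4 at those limits. Pairs without a second centre within 200 bp numbered 807. Ranked anew, 13 of these were favoured by OsbZIP69, or 1.61%, beside 1.86% of all pairs. Of the 1000 strongest OsbZIP42 peaks 34.7% were paired, 27.2% with a 10 bp limit and 30.4% among peaks with no second OsbZIP42 centre within 200 bp. The distal excess of 0.84 percentage points was 0.11 with ends of 2 Mb. The OsbZIP77 shares stayed within their intervals under all 20 alternatives, but the intervals of the discordant groups are wide. With ranks by q-value, the share was 92.0% (23 of 25) at sites favoured by OsbZIP69. At sites favoured by OsbZIP42 it was 69.6% (32 of 46), against 80.0% and 81.6% by signal. No replicate could be left out. No paired analysis was possible because no protein had a second library. Unknown depth limits any statement on unpaired OsbZIP42 peaks.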
